A study of Caenorhabditis elegans with 14 samples.

Results

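Catalases and superoxide dismutases are the enzymes with which cells clear reactive oxygen. A superoxide dismutase turns superoxide into hydrogen peroxide and oxygen, and a catalase splits hydrogen peroxide into water and oxygen. In C. elegans sod-1 and sod-5 encode copper/zinc enzymes of the cytosol, sod-2 and sod-3 manganese enzymes of the mitochondria, and sod-4 an extracellular copper/zinc enzyme. The catalase genes ctl-1, ctl-2 and ctl-3 are tandem copies, of which ctl-2 encodes the peroxisomal enzyme and ctl-1 a cytosolic one. Several of these genes, sod-3 above all, are known targets of the FOXO transcription factor DAF-16, through which insulin-like signaling acts on life span.

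All array elements whose gene symbol, or the symbol of the coding sequence they are named for, was one of these 8 genes were taken, whatever their values. These were 11 of the 22490 elements for worm transcripts, 6 for catalases and 5 for superoxide dismutases. The genes ctl-1, sod-1, sod-2, sod-3, sod-4 and sod-5 had 1 element each. The gene ctl-2 had 2 elements, cea2.d.45414 (coding sequence Y54G11A.5b) and cea2.f.08178 (Y54G11A.5a), and ctl-3 had 3, named cea2.3.29373, cea2.3.29379 and cea2.p.51984. In the RefSeq annotation of WBcel235 the catalase genes lie on chromosome II in the order ctl-2, ctl-1, ctl-3. The same chromosome holds sod-1 and sod-5, whereas sod-2 lies on I, sod-4 on III and sod-3 on X. The build on which the array was designed is not given in the sources used here, so no positions are listed.

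Each of the 14 arrays carried RNA of whole worms of both strains in 2 dyes: N2, the strain used in laboratories, and CB4856, which was collected in Hawaii. Juvenile worms of 40 hr (t1) were on 5 arrays, reproductive worms of 96 hr (t2) on 4, and old worms of 214 hr (t3) on 5. N2 was labeled with Cy3 and CB4856 with Cy5, except on 5 arrays with exchanged dyes (2 of t1, 1 of t2 and 2 of t3), which are named by the replicate they exchange, as in replicate 1-exchange. All worms were hermaphrodite cultures kept at 24° on E. coli, and the worms of several dishes were pooled for a sample. Those of t2 and t3 spent 30 hr on dishes with FUDR, which stops eggs from hatching, from hour 41, so that age and FUDR cannot be told apart between t1 and the later ages. The labels put the t1 worms in late L3 and the methods in late L4, and the number of replicates stated in the methods exceeds that of the arrays used here. The labels do not say whether an array and its dye exchange share RNA extracts, so the p-values measure the spread between arrays, which may be technical. In RNA of whole worms, fewer cells of a type and less RNA per cell cannot be told apart.

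Values are normalized intensities on a log2 scale, without a unit, and a ratio is the log2 of CB4856 over N2, so that a negative ratio means a lower level in CB4856. Levels are compared only within an element. An element was called where its adjusted p in limma (Benjamini-Hochberg over the 22490 elements) was under 0.05. A spot was above background where its mean intensity exceeded the median of its local background by more than 2 SD. The median spot intensity was 191 to 303 per array and dye over a local background of 163 to 183, and 39.3% to 63% of elements were above background. The elements of ctl-1, ctl-2, sod-1, sod-2 and sod-4 were above background in all 28 channels (14 arrays with 2 dyes). The ctl-3 elements were above it in 17, 25 and 13 channels in the order given, sod-3 in 8 and sod-5 in 4. The ratios of 3 arrays followed those of the other arrays of their age less closely, with a median correlation across elements of 0.19 for t1 replicate 3, 0.27 for t2 replicate 2 and 0.23 for t3 replicate 3, against 0.28 to 0.55 for the other 11 arrays. The calls described here are given without these arrays where they changed.

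The first comparison was between the strains at each age. The catalase gene ctl-1 was lower in CB4856 than in N2 at each age and 1 of the 3 elements of ctl-3 was lower at t1 and t2, and no catalase or superoxide dismutase element was called higher in CB4856 at any age. At t1, 2 of the 11 elements were called, ctl-1 and the ctl-3 element cea2.3.29379, where 2.65% of all elements were called. At t2, 3 were called, the same elements and sod-1, beside 2.64% of all elements. At t3 only ctl-1 was called, beside 3.42% of all elements. The median ratio of the 11 elements was −0.05 at t1, −0.15 at t2 and −0.27 at t3, against medians of 0.01, 0.02 and 0.02 over all elements.

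The cytosolic catalase gene ctl-1 had the largest strain difference of the 11 elements at each age. At t1 its log2 intensity in N2 was 10.15, 10.28, 9.87, 10.43 and 10.77 on replicates 1, 1-exchange, 2, 2-exchange and 3. In CB4856 on the same arrays it was 8.01, 8.22, 7.89, 7.78 and 7.87. Every N2 value lay above every CB4856 value, and the ratio of −2.35 (SE 0.15, adjusted p = 5.6e-07, n = 5 arrays, limma) was a 5.1-fold lower level in CB4856. At t2 N2 had 10.12, 10.84, 10.7 and 10.35 on replicates 1, 1-exchange, 2 and 3, and CB4856 had 8.64, 8.86, 9.33 and 8.85. The strains again did not overlap, with a ratio of −1.58 (SE 0.17, adjusted p = 0.00012, n = 4, limma), 2.99-fold. At t3 N2 had 10.84, 10.89, 10.79, 10.72 and 10.72 on replicates 1, 2, 1-exchange, 3 and 2-exchange, and CB4856 had 10.15, 9.89, 10.14, 9.3 and 9.94. The lowest N2 value still lay above the highest CB4856 value, and the ratio was −0.91 (SE 0.15, adjusted p = 0.004, n = 5, limma), 1.87-fold. The ratio was negative on 14 of 14 arrays and in each of the 4 scan sessions. With same-numbered arrays averaged, the t3 difference was −0.88 with an adjusted p of 0.062.

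**Figure D1:**
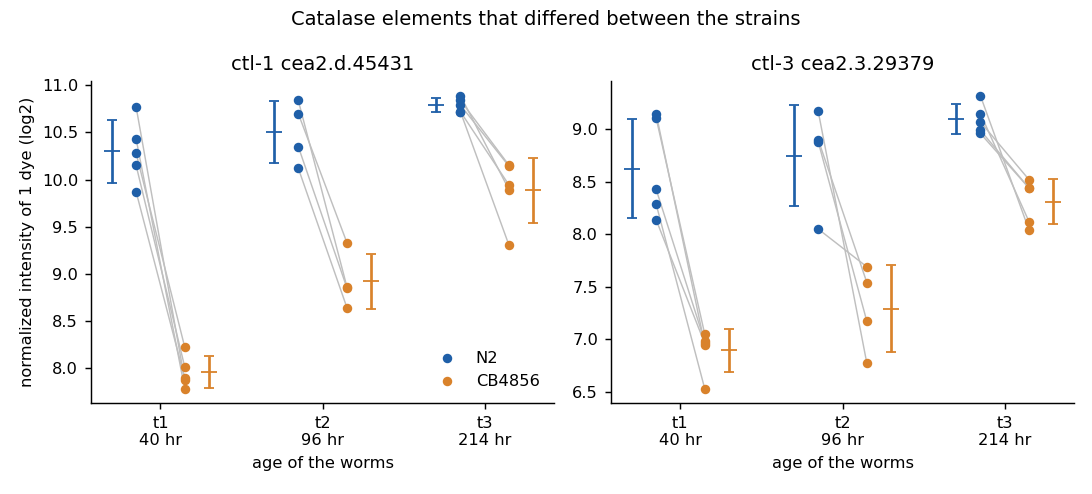
Normalized log2 intensity of ctl-1 (left) and of the ctl-3 element cea2.3.29379 (right) in N2 (blue) and CB4856 (orange) at t1, t2 and t3, with a point for each dye of an array, a grey line joining the dyes of 1 array, and bars beside the points for the mean ± SD of 5, 4 and 5 arrays. Each grey line falls from N2 to CB4856, and for ctl-1 the CB4856 mean climbs from 7.95 at t1 to 9.89 at t3 while the N2 mean goes from 10.3 to 10.79.

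The strain difference of ctl-1 was smaller in older worms. The ratios of the 5 t1 arrays were −2.15, −2.06, −1.98, −2.65 and −2.9, and those of the 5 t3 arrays −0.68, −1, −0.65, −1.42 and −0.77. No t3 array had a difference as large as any t1 array. The t2 arrays, at −1.48, −1.98, −1.36 and −1.5, touched the range of t1 at −1.98 and overlapped with that of t3 at −1.36. The change of the strain difference from t1 to t2 was 0.77 (SE 0.23, adjusted p = 0.24, limma) and that from t2 to t3 was 0.68 (SE 0.23, adjusted p = 0.5), and neither was called. Of the 11 elements 0 were called in the first of these steps, where 0.734% of all elements were, and 0 in the second, where 0.187% were. At an unadjusted p under 0.05, 1 of the 11 elements (ctl-1) differed in the first step and 3 (ctl-1, ctl-3 cea2.p.51984 and sod-5) in the second. That threshold is loose. In limma the p of 0.067 of sod-1 ranked 2379 of 22490 in the first step. In the second step the p of 0.043 of cea2.p.51984 ranked 1281. The spots of cea2.p.51984 and sod-5 were above background in 13 and 4 of 28 channels.

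From t1 to t3, a contrast that was added after the ctl-1 values had been seen, the strain difference of ctl-1 changed by 1.44 (SE 0.21, adjusted p = 0.0042, limma), which is 2.72-fold. It was the 1 element of the 11 that was called in this contrast, where 0.978% of all elements were called. Within scan sessions the ratio went from −2.15 to −0.68 in session 1, from −2.32 to −0.83 in session 3 and from −2.9 to −1.1 in session 4, and session 2 held no t3 array. Without t1 replicate 3 the change was 1.29 (adjusted p = 0.0065). The change was 0.81 with an adjusted p of 0.12 in the authors' table of ratios, and 1.45 with an adjusted p of 0.06 with same-numbered arrays averaged, and it was called in the other 24 alternatives.

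Over the 3 ages the mean level of ctl-1 in CB4856 rose by 0.97 (SE 0.19) from t1 to t2 and by 0.97 (SE 0.19) from t2 to t3, in sum 1.93 (SE 0.18). In N2 it differed by 0.2 (SE 0.19) and 0.29 (SE 0.19), in sum 0.49 (SE 0.18). Ordered by their means, the 6 combinations of strain and age were N2 at t3 (10.79 ± 0.07, SD), N2 at t2 (10.5 ± 0.32), N2 at t1 (10.3 ± 0.33), CB4856 at t3 (9.89 ± 0.35), CB4856 at t2 (8.92 ± 0.29) and CB4856 at t1 (7.95 ± 0.17). The ranges of neighbors in this order overlapped among the N2 ages, between N2 at t1 and CB4856 at t3, and narrowly between CB4856 at t3 and t2, but not between CB4856 at t2 and t1.

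The catalase gene ctl-3 gave different answers in its 3 elements. The element cea2.3.29379 followed ctl-1. At t1 its log2 intensity in N2 was 9.11, 8.43, 8.29, 9.15 and 8.14 on replicates 1, 1-exchange, 2, 2-exchange and 3, against 7.05, 6.98, 6.53, 6.95 and 6.96 in CB4856. The strains did not overlap, and the ratio was −1.73 (SE 0.23, adjusted p = 0.00064, n = 5, limma), 3.32-fold. At t2 N2 had 9.17, 8.88, 8.05 and 8.9 and CB4856 6.77, 7.17, 7.69 and 7.54 on replicates 1, 1-exchange, 2 and 3. The groups did not overlap here either, but the ratio ranged from −2.39 on replicate 1 to −0.36 on replicate 2, with a fitted value of −1.45 (SE 0.27, adjusted p = 0.0084, n = 4, limma). The t2 call was lost in 4 of 28 alternatives. The ratio was −1.31 (adjusted p = 0.12) without t2 replicate 1-exchange, −1.54 (adjusted p = 0.36) with the t2 arrays alone, and −1.49 (adjusted p = 0.066) and −1.17 (adjusted p = 0.23) with only the spots of 1 or another scanner flag code. Without t2 replicate 2 it was −1.8 (adjusted p = 0.00067). At t3 the ratios were −1.28, −1.02, −0.56, −0.52 and −0.55, all negative, and the fitted value was −0.78 (SE 0.23, adjusted p = 0.097), which was not called. It was called without t2 replicate 2 (−0.77, adjusted p = 0.028), in the authors' table of ratios (−0.91, adjusted p = 0.0039) and without normalization between arrays (−1.09, adjusted p = 0.0091). The ratio was negative on 14 of 14 arrays. In N2 this element was above background on all 14 arrays. In CB4856 it was so on 4 of the 5 t1 arrays, 2 of the 4 t2 arrays and all 5 t3 arrays.

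The other ctl-3 elements showed no called strain difference with all arrays in the fit. The ratio of cea2.3.29373 was 0 at t1 (adjusted p = 1), −0.28 at t2 (adjusted p = 0.64) and −0.73 at t3 (SE 0.2, adjusted p = 0.07, limma). That of cea2.p.51984 was −0.14 (adjusted p = 0.88), −0.05 (adjusted p = 0.96) and −0.76 (SE 0.21, adjusted p = 0.076, limma). At t3 both were lower in CB4856 on 5 of 5 arrays, with ratios of −1.36, −1.07, −0.6, −0.07 and −0.55 for the former and −1.56, −1.15, −0.43, −0.07 and −0.61 for the latter on replicates 1, 2, 1-exchange, 3 and 2-exchange. Without t3 replicate 3, the array with the smallest ratio for both, they were −0.89 (adjusted p = 0.03) and −0.94 (adjusted p = 0.027) and were called. The former was also called without t2 replicate 2 (−0.72, adjusted p = 0.031), and in the authors' table of ratios the 2 elements were called at −0.74 (adjusted p = 0.014) and −0.59 (adjusted p = 0.03). At t1 N2 exceeded background on 3 of 5 arrays and CB4856 on 0 of 5 for the former, and neither strain on any array for the latter, so the t1 ratios of these elements say little about the gene. The sequences of the elements were not used here, and how far each element responds to RNA of the other catalase genes was not tested.

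The peroxisomal catalase gene ctl-2 did not differ detectably between the strains. The ratio of cea2.d.45414 was −0.01 (SE 0.18, adjusted p = 0.99), −0.16 (SE 0.21, adjusted p = 0.78) and −0.15 (SE 0.18, adjusted p = 0.81) at t1, t2 and t3 in limma. For cea2.f.08178 it was −0.26 (SE 0.17, adjusted p = 0.62), −0.15 (SE 0.2, adjusted p = 0.79) and −0.29 (SE 0.17, adjusted p = 0.48). On t2 replicate 2 both elements stood apart, at −1.09 and −0.94, where the other 3 arrays lay between −0.04 and 0.35.

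**Figure D2:**
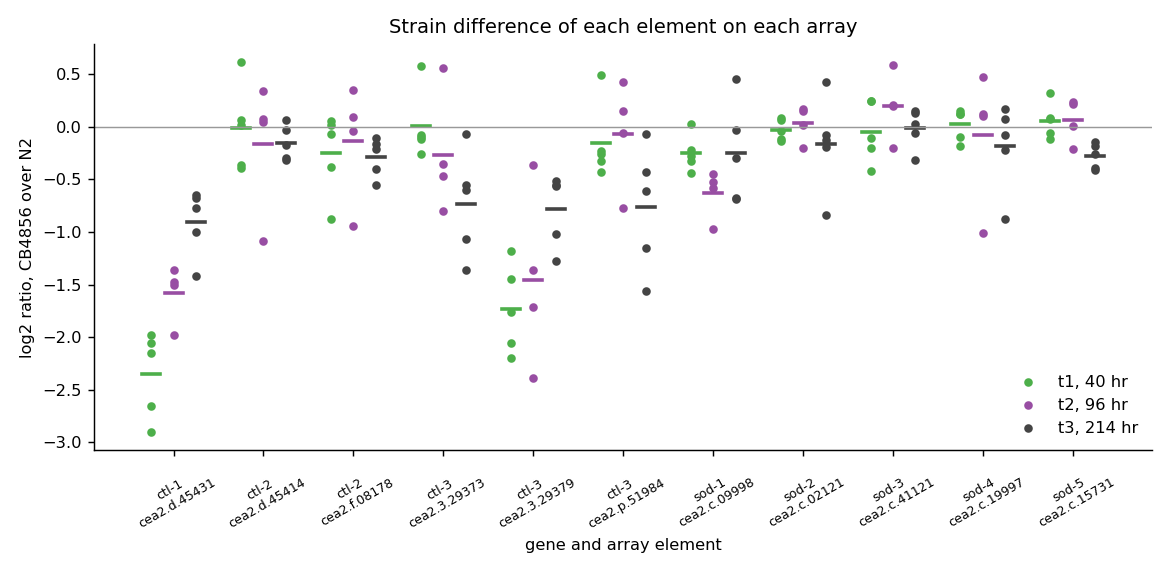
Log2 ratio of CB4856 over N2 (vertical axis) for each of the 11 elements (horizontal axis), with a point for each array at t1 (green), t2 (purple) and t3 (dark grey) and a bar for the mean of 5, 4 and 5 arrays. The points of ctl-1 and of ctl-3 cea2.3.29379 all lie below 0, whereas those of sod-2, sod-3, sod-4 and ctl-2 lie on both sides of it.

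Among the superoxide dismutases, 1 strain difference was called, in sod-1, the main cytosolic enzyme. At t2 sod-1 had 11.59, 11.5, 11.21 and 11.25 in N2 and 10.61, 10.92, 10.68 and 10.81 in CB4856 on replicates 1, 1-exchange, 2 and 3. The strains did not overlap, and the fitted ratio was −0.69 (SE 0.16, adjusted p = 0.039, n = 4, limma), 1.61-fold. The ratio was −0.27 at t1 (SE 0.14, adjusted p = 0.46) and −0.27 at t3 (SE 0.14, adjusted p = 0.4), where the ranges of the strains overlapped. The t2 call was lost in 16 of 27 alternatives, among them the model with the t2 arrays alone (−0.62), the omission of any of the 4 t2 arrays, and that of t1 replicate 1, 1-exchange or 2-exchange or t3 replicate 2, 1-exchange or 2-exchange, with adjusted p-values over all alternatives of 0.015 to 0.36 and a negative ratio in each.

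The mitochondrial enzymes showed no strain difference that passed the test. For sod-2 the ratio was −0.03 (adjusted p = 0.98), 0.05 (adjusted p = 0.91) and −0.16 (adjusted p = 0.67) at t1, t2 and t3 in limma, with an SE of 0.13, 0.15 and 0.13. For sod-3, whose element exceeded background on none of the 10 t1 channels, 2 of the 8 t2 channels and 6 of the 10 t3 channels, it was −0.05 (adjusted p = 0.94), 0.19 (adjusted p = 0.59) and −0.02 (adjusted p = 0.98). The extracellular sod-4 had 0.04 (adjusted p = 0.98), −0.03 (adjusted p = 0.96) and −0.17 (adjusted p = 0.78), with t2 replicate 2 at −1.01 and t3 replicate 2 at −0.88 while the other 12 arrays lay between −0.22 and 0.47.

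The second cytosolic enzyme, sod-5, which is known for its rise in dauer larvae, was not above background in either strain at t1 and t2. At t3 its log2 intensity in N2 was 6.56, 6.89, 6.49, 6.7 and 6.58, and in CB4856 6.31, 6.48, 6.31, 6.31 and 6.43, on replicates 1, 2, 1-exchange, 3 and 2-exchange. The lowest N2 value lay just above the highest CB4856 value, and the spot exceeded background on 4 of 5 arrays for N2 and on 0 of 5 for CB4856. The ratio of −0.26 (SE 0.08, adjusted p = 0.1, limma) was not called, and since CB4856 was not above background its size is not known.

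Genes around the catalases were looked at to see whether the strain difference extended along the chromosome. The clone Y54G11A, on which the catalase genes lie, had 11 elements for other genes. Of these 1 was called at each age, Y54G11A.2, which was higher in CB4856, with ratios of 1.01 (adjusted p = 4.6e-05), 0.8 (adjusted p = 0.0012) and 0.69 (adjusted p = 0.0014) at t1, t2 and t3 in limma. Of all elements, 2.65%, 2.64% and 3.42% were called at these ages. The gene Y54G11A.2 lies at the end of the group nearer to ctl-2, with 5 other genes with an element between it and ctl-2. Of these 5, srh-41 and Y54G11A.4 were above background in no channel, so their ratios say little about these genes. The neighbor of ctl-2, Y54G11A.7, had 0.43 at t1 (adjusted p = 0.1), and its ratio was −0.01 at t2 and 0.05 at t3. The first gene with an element beyond ctl-3, Y54G11A.14, had −0.05, −0.28 and 0.15 and was not called.

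The other genes of hydrogen peroxide and redox metabolism are given beside the 2.65%, 2.64% and 3.42% of all elements called between the strains at t1, t2 and t3. Of 27 elements for peroxiredoxins, thioredoxins and glutathione peroxidases, 1 was called lower in CB4856 at each age, and it was gpx-1, a glutathione peroxidase gene, with ratios of −1.89 (adjusted p = 3.1e-06), −1.68 (adjusted p = 4.8e-05) and −1.18 (adjusted p = 0.00031). In the same list glrx-3, a glutaredoxin gene, was higher in CB4856 at t2 (0.67, adjusted p = 0.003). Of 21 elements for peroxisome biogenesis, through which catalase enters the peroxisome, 1 was called, prx-13 at t1 (−0.35, adjusted p = 0.029). Of 49 elements for regulators of these enzymes, insulin-like signaling and DAF-16 included, 1 was called, an element of skn-1 at t1 (−0.66, adjusted p = 0.03) that was above background in 9 of 28 channels. No element of 27 for oxidant-producing enzymes and other stress genes was called in limma. The median ratios of these lists lay between −0.13 and 0.13 at every age, beside 0.01 to 0.02 over all elements.

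The second comparison was between ages, on the mean of both strains on each array. From juvenile to old worms, ctl-1, ctl-3 and sod-4 rose and ctl-2 fell, although without normalization between arrays the ctl-2 changes were close to 0 and that of cea2.d.45414 was positive. In the normalized data the tandem catalase genes thus changed in opposite directions. The extracellular sod-4 had the largest rise, 3.29-fold from t1 to t3. From t1 to t2, 6 of the 11 elements were called, 5 higher and 1 lower at t2, where 33.7% of all elements were called. Without normalization between arrays none of these 6 kept its call in this step. From t2 to t3, 8 were called, 6 higher and 2 lower at t3, where 19.7% of all elements were. From t1 to t3, 9 were called, 7 higher and 2 lower at t3, where 43.5% of all elements were. The median change of the 11 elements was 0.38, 0.51 and 0.39 in these steps, against 0.03, 0.01 and 0 over all elements. The changes from t1 to t2 and from t2 to t3 share the t2 arrays.

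For ctl-1 the mean log2 intensity of both strains was 9.08, 9.25, 8.88, 9.1 and 9.32 on t1 replicates 1, 1-exchange, 2, 2-exchange and 3. It was 9.38, 9.85, 10.02 and 9.6 on t2 replicates 1, 1-exchange, 2 and 3, and 10.49, 10.39, 10.47, 10.01 and 10.33 on t3 replicates 1, 2, 1-exchange, 3 and 2-exchange. The t1 arrays lay below all others, and only t3 replicate 3 fell within the range of t2. The rise was 0.58 from t1 to t2 (SE 0.14, adjusted p = 0.0048, limma), 0.63 from t2 to t3 (SE 0.14, adjusted p = 0.0067) and 1.21 from t1 to t3 (SE 0.13, adjusted p = 6.7e-06). Without normalization between arrays the step from t1 to t2 was 0.62 and was not called (adjusted p = 0.35). The rise was positive within every scan session that held both ages. From t1 to t3 the fitted rise was 0.49 in N2 and 1.93 in CB4856. The contrast between the strains was called for t1 to t3, but it was added after the values had been seen, and neither single step was called.

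The 3 ctl-3 elements, which differed between the strains in unlike ways, all rose with age. From t1 to t3 they rose by 1.45 (cea2.3.29373, SE 0.11, adjusted p = 2.9e-07), 0.95 (cea2.3.29379, SE 0.12, adjusted p = 3.6e-05) and 1.14 (cea2.p.51984, SE 0.12, adjusted p = 4.7e-06) in limma. At t1 cea2.3.29373 exceeded background on 3 of 10 channels, and without background correction its rise was 0.83 and was still called. On each of the 3 elements the lowest t3 array lay above the highest t1 array. For cea2.3.29373 the t1 arrays had 6.24 to 6.66, the t2 arrays 6.63 to 7.16 and the t3 arrays 7.74 to 7.99. The step from t2 to t3 was called for all 3, at 1.05 (adjusted p = 5.6e-05), 0.68 (adjusted p = 0.0029) and 0.52 (adjusted p = 0.012). The step from t1 to t2 was called for cea2.3.29373 (0.39, adjusted p = 0.017) and cea2.p.51984 (0.63, adjusted p = 0.0015) but not for cea2.3.29379 (0.26, adjusted p = 0.16). Without t2 replicate 3 the step of cea2.3.29373 was 0.3 with an adjusted p of 0.061. Its call was also lost without background correction (0.16, adjusted p = 0.064) and with same-numbered arrays averaged (0.44, adjusted p = 0.06). With only the spots of the most frequent scanner flag code neither step was called, at 0.28 (adjusted p = 0.15) and 0.55 (adjusted p = 0.052). Without normalization between arrays the 2 called steps from t1 to t2 were 0.17 (adjusted p = 0.66) and 0.39 (adjusted p = 0.2). Since cea2.p.51984 was above background on no t1 channel, its rise is known only as at least 1.17-fold to t2 and at least 1.48-fold to t3.

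The level of ctl-2 went the other way. Its element cea2.f.08178 had 10.21, 9.78, 11.01, 10.2 and 10.35 on t1 replicates 1, 1-exchange, 2, 2-exchange and 3, and 9, 9.34, 8.82 and 9.23 on t2 replicates 1, 1-exchange, 2 and 3. At t3 it had 8.51, 8.95, 9.03, 9.47 and 8.94 on replicates 1, 2, 1-exchange, 3 and 2-exchange. Every t1 array lay above every later one, while t2 and t3 overlapped. It fell by 1.21 from t1 to t2 (SE 0.23, adjusted p = 0.00095, limma), the 1 element called lower in that step, and its change from t2 to t3 was −0.11 (SE 0.23, adjusted p = 0.79).

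The element cea2.d.45414 had 10.1 to 10.74 at t1, 9.53 to 10.59 at t2 and 8.92 to 9.6 at t3, so that t1 and t3 did not overlap. From t1 to t3 ctl-2 fell by 1.18 in cea2.d.45414 (SE 0.21, adjusted p = 0.00044, limma) and by 1.33 in cea2.f.08178 (SE 0.21, adjusted p = 0.00021), except that without normalization between arrays the changes were 0.07 (adjusted p = 0.92) and −0.13 (adjusted p = 0.86). In that setting the median change over all elements was −0.05 from t1 to t2, 0.29 from t2 to t3 and 0.11 from t1 to t3, and no fall of ctl-2 was called. The steps of cea2.d.45414 were −0.56 from t1 to t2 (adjusted p = 0.07) and −0.62 from t2 to t3 (adjusted p = 0.071), and without t2 replicate 1-exchange, its highest t2 array, the former was −0.81 with an adjusted p of 0.0035. Without t3 replicate 3 the latter was −0.71 with an adjusted p of 0.043. In both strains the changes of ctl-2 were alike, with −1.11 and −1.31 in N2 and −1.25 and −1.34 in CB4856 from t1 to t3 (SE 0.25 each), and no difference between these was called.

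**Figure D3:**
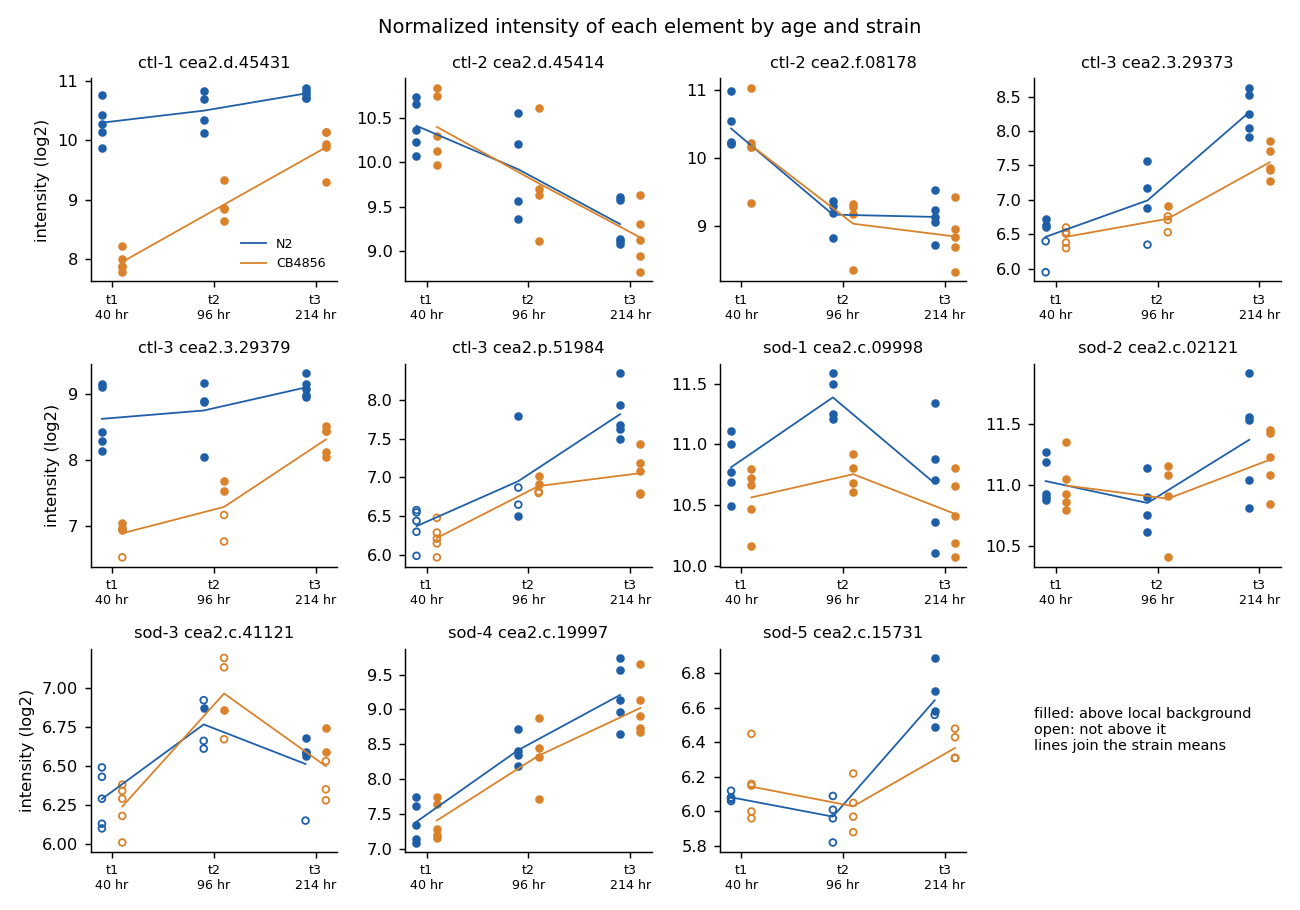
Normalized log2 intensity of each of the 11 elements in N2 (blue) and CB4856 (orange) at 40, 96 and 214 hr, with a point for each array (filled where the spot was above background, open where it was not) and lines through the strain means. The lines of sod-4, ctl-1 and the 3 ctl-3 elements climb, those of both ctl-2 elements fall (without normalization between arrays neither fall was called), and most points of sod-3 and sod-5 are open.

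Of the superoxide dismutases, sod-4 changed most. Its mean log2 intensity was 7.25, 7.22, 7.14, 7.68 and 7.7 on t1 replicates 1, 1-exchange, 2, 2-exchange and 3, and 8.64, 8.4, 8.21 and 8.26 on t2 replicates 1, 1-exchange, 2 and 3. At t3 it was 9.05, 9.12, 8.69, 9.7 and 9.02 on replicates 1, 2, 1-exchange, 3 and 2-exchange. The 3 ages did not overlap. The rise was 0.98 from t1 to t2 (SE 0.19, adjusted p = 0.00099, limma), 0.74 from t2 to t3 (SE 0.19, adjusted p = 0.014) and 1.72 from t1 to t3 (SE 0.17, adjusted p = 4e-06). Without normalization between arrays the step from t1 to t2 was 0.73 and was not called (adjusted p = 0.13). The rise was positive within every scan session that held both ages. From t1 to t3 it was 1.82 in N2 and 1.61 in CB4856 (SE 0.23 each), and the difference of −0.21 was not called (adjusted p = 0.9).

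The cytosolic sod-1 was highest in reproductive worms, with 10.94 to 11.21 at t2 against 10.32 to 10.89 at t1 and 10.09 to 11 at t3. The change was 0.38 from t1 to t2 (SE 0.16, adjusted p = 0.086, limma), which was called without t3 replicate 2 (adjusted p = 0.042) or t3 replicate 1-exchange (adjusted p = 0.048), and sod-1 fell by 0.52 from t2 to t3 (SE 0.16, adjusted p = 0.039), although this change was 0.59 (adjusted p = 0.2) without normalization between arrays. That call was lost in 13 of 23 alternatives, among them the omission of each t2 array in turn and of t3 replicate 1, 2 or 2-exchange. Its change from t1 to t3 was −0.13 (adjusted p = 0.54), and 1.1 (adjusted p = 0.011) without normalization between arrays. The mitochondrial sod-2 had 10.86 to 11.31, 10.51 to 11.15 and 10.95 to 11.5 at t1, t2 and t3, and its changes of −0.14 (adjusted p = 0.58), 0.42 (adjusted p = 0.091) and 0.28 (adjusted p = 0.17) were not called. The step from t2 to t3 of sod-2 was called without t3 replicate 2-exchange (0.5, adjusted p = 0.046) and with scan session in the model (0.45, adjusted p = 0.02), as was that from t1 to t3 with scan session (0.34, adjusted p = 0.026). Without normalization between arrays these changes of sod-2 were 1.4 (adjusted p = 0.0094) and 1.33 (adjusted p = 0.0046).

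The elements of sod-3 and sod-5 were dim, and their changes are known only as bounds where an age was not above background. The mitochondrial sod-3 had 6.22 to 6.39 at t1, where it was above background on no channel, 6.76 to 7.02 at t2 and 6.22 to 6.66 at t3. The t2 arrays lay above all the others. It rose by 0.6 from t1 to t2 (SE 0.09, adjusted p = 0.00017, limma), which is known only as at least 1.13-fold. Without normalization between arrays this step was 0.31 and was not called (adjusted p = 0.16). From t2 to t3 the fitted change was −0.36 (SE 0.09, adjusted p = 0.014), which was called, but the spot exceeded background on 2 of 8 channels at t2 and on 6 of 10 at t3, so its size is not known, and it was 0.05 (adjusted p = 0.81) without normalization between arrays. Without t2 replicate 1-exchange that step was −0.31 with an adjusted p of 0.05. The change of sod-3 from t1 to t3 was 0.24 (adjusted p = 0.036), at least 1.01-fold, and its call was lost in 13 of 22 alternatives, including the omission in turn of each t1 array except replicate 2-exchange and of each t3 array except replicate 1-exchange.

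The cytosolic sod-5 had 6.02 to 6.29 at t1, 5.94 to 6.12 at t2 and 6.4 to 6.68 at t3. The t3 arrays did not overlap with the others. It rose by 0.51 from t2 to t3 (SE 0.08, adjusted p = 0.00057, limma) and by 0.39 from t1 to t3 (adjusted p = 0.00059). As it was not above background before t3, these rises are known only as at least 1.02-fold and at least 1.03-fold. From t2 to t3 the fitted change was 0.69 (SE 0.1) in N2 and 0.33 (SE 0.1) in CB4856 in the strain-wise fit. The difference of −0.36 was not called (adjusted p = 0.49, limma). Since sod-5 was above background in CB4856 at no age, the size of its change in that strain is not known.

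The levels of marker genes of tissues and stages also changed between the ages. Of all elements, 18.4% rose and 15.3% fell from t1 to t2, and 9.42% rose and 10.3% fell from t2 to t3. Of 24 elements for oocyte and yolk genes 18 rose from t1 to t2 and 0 fell. Of 19 for sperm genes 17 fell in that step and 12 rose from t2 to t3. Of 16 elements for larval molting genes 13 fell from t1 to t2, and their summed log2 level went from between 15.47 and 15.72 to between 10.84 and 11.49. Of 21 elements for intestine genes, 9 fell and 1 rose from t1 to t2 and 12 fell from t2 to t3. Their summed log2 level was 16.09 or higher at t1, 15.76 to 16.19 at t2 and 14.32 to 15.69 at t3. For muscle genes 15 and 13 of 21 fell in these steps, and the summed level went from between 16.44 and 16.94 at t1 to between 13.25 and 14.54 at t3. From t1 to t3 ctl-2 fell, but without normalization between arrays its changes were 0.07 and −0.13. In that step 13 of 21 intestine, 19 of 21 muscle, 14 of 16 larval molting and 11 of 19 sperm elements fell. From t2 to t3, where intestine and muscle elements fell, ctl-2 cea2.f.08178 changed by −0.11 and was not called. From t1 to t3 ctl-1, ctl-3 and sod-4 rose, as did 18 of 24 oocyte and yolk elements. The part of the tissues in these changes was not tested. Between the strains, 4 of 21 intestine, 5 of 21 muscle and 2 of 16 larval molting elements were called higher in CB4856 at t3, where 1.57% of all elements were. At t2, 1 of 21 intestine, 0 of 21 muscle and 0 of 16 larval molting elements were, beside 1.08% of all elements. At t1, 0 elements of these 3 lists were called, where 2.65% of all elements were. The part of the tissues in the strain difference of ctl-1 was not tested.

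Other redox genes also changed with age, in both directions, where 23.9% of all elements rose and 19.6% fell from t1 to t3. Of the 27 elements for peroxiredoxins, thioredoxins and glutathione peroxidases, 5 rose and 8 fell from t1 to t3, with the largest falls in msra-1, a methionine sulfoxide reductase gene (−4.1, adjusted p = 1e-07), gpx-7 (−2.77, adjusted p = 1.8e-06) and gpx-5 (−2.15, adjusted p = 2.2e-07). Of 21 elements for peroxisome biogenesis and membrane genes, 2 rose and 10 fell from t1 to t3. In the same step ctl-2, which encodes the peroxisomal catalase, fell, though without normalization between arrays its changes were 0.07 and −0.13. A link between these changes was not tested. The largest falls among the 21 elements were in the peroxisomal transporter genes pmp-5 (−3.74, adjusted p = 5.5e-07) and pmp-2 (−2.04, adjusted p = 3.9e-06) and in pxmp-4 (−2.01, adjusted p = 5.2e-07). Of 49 elements for regulators, 23 were higher and 5 lower at t3 than at t1. Among them age-1, the insulin-signaling kinase gene, had 1.79 (adjusted p = 6.9e-08), daf-18, its phosphatase antagonist, 1.95 (adjusted p = 8.4e-05) and sgk-1 −1.95 (adjusted p = 9e-06). Of 27 elements for oxidant-producing enzymes and other stress genes, 8 rose and 10 fell from t1 to t3, with mtl-1, a metallothionein gene, at 3.27 (adjusted p = 6.2e-05). The median change from t1 to t3 was 0.07, −0.25, 0.48 and −0.19 in these 4 lists, against 0 over all elements.

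The 11 elements were last compared by their pattern over the 28 channels, in which strain and age both enter and each array gives 2 channels. The nearest pair was the 2 ctl-3 elements cea2.3.29373 and cea2.p.51984, with a Pearson r of 0.92. The remaining ctl-3 element, cea2.3.29379, had r = 0.9 with ctl-1 and 0.64 and 0.6 with the elements named for its own gene. The ctl-2 elements had r = 0.81 with each other and −0.27 to −0.75 with the elements of ctl-1 and ctl-3. Among the superoxide dismutases the highest r was 0.55, between sod-4 and sod-5, and sod-4 had 0.75 and 0.73 with the ctl-3 elements cea2.3.29373 and cea2.p.51984. These are descriptions over channels that share arrays.

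**Figure D4:**
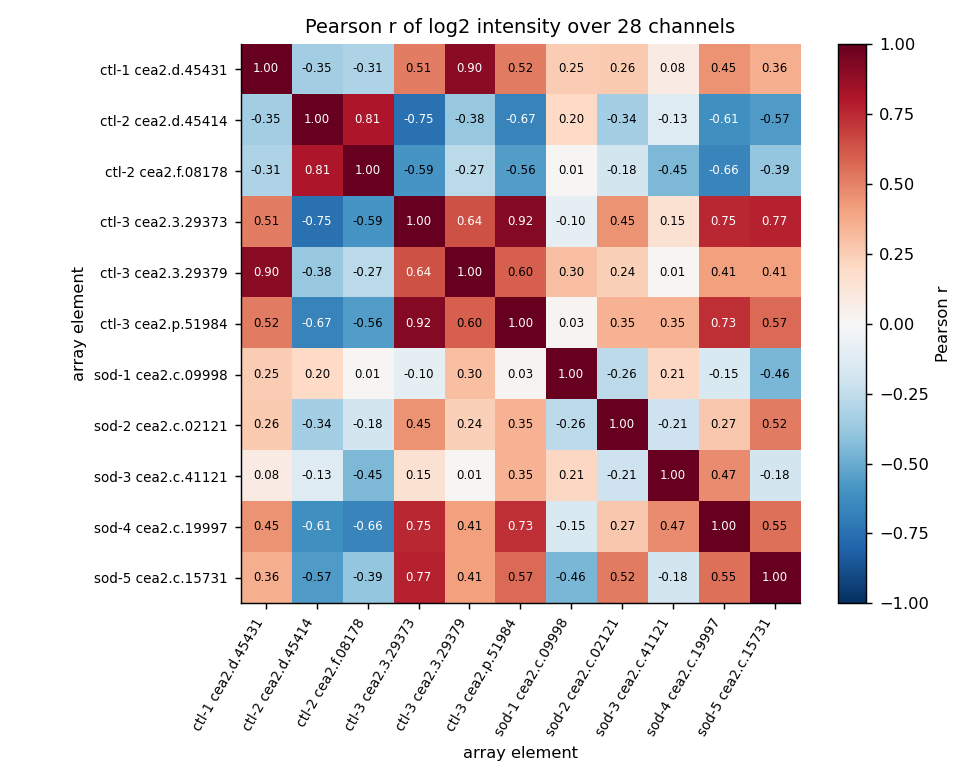
Pearson r of normalized log2 intensity between the 11 elements (both axes) over the 28 channels of 14 arrays, with red for positive and blue for negative r and the value in each cell. The elements ctl-1 and ctl-3 cea2.3.29379 form one pair (0.9), the other ctl-3 elements another (0.92) and the ctl-2 elements their own (0.81), which is negative against both.

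The elements most like each gene were sought among those of all other genes, the other catalases and superoxide dismutases included, that were above background in at least 21 of 28 channels, 9782 for each gene but ctl-2, with 9781. For ctl-1 these were T16G12.3 (r = 0.915) and ctl-3 cea2.3.29379 (r = 0.897), and for the latter ctl-1 and Y20F4.5 (r = 0.883). For ctl-2 cea2.d.45414 they were ucr-2.1 (r = 0.927) and dhs-28 (r = 0.925). For sod-4 they were ZC443.3 (r = 0.974) and nmad-1 (r = 0.945), for sod-2 C29E4.12 (r = 0.842) and emg-1 (r = 0.789), and for sod-1 clec-41 (r = 0.761) and lys-8 (r = 0.751). The genes sod-3 and sod-5 were above background in too few channels to be compared this way.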

How the data were processed

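Spot intensity values, deposited as scanner output of PerkinElmer ScanArray Express, give for each dye a spot mean and a local background median, neither corrected nor normalized by the authors. A second deposited file holds log2 values, normalized with limma by their notes, whose values ran opposite to the ratios used here (N2 over CB4856) and matched loess ratios without background correction. It served for 1 alternative. Flag codes are not explained in the files.

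In R 4.3.3 with limma 3.58.1 and statmod 1.5.0, intensities were corrected by normexp (offset 50), normalized by loess within and quantiles between the 14 arrays, and fitted in 1 limma model with a strain difference per age plus a dye term. Age changes were fitted per array on the log2 intensity averaged over its dyes, and strain-wise age changes on single channels with an intraspot correlation of 0.423. The fits were tested on simulated data. A p-value was adjusted over all 22490 elements. Symbols came from the platform table for 17358 elements and from coding sequence names for 4055, and 1077 stayed unmatched. All 11 elements are described. From each gene list at most 3 called elements a comparison are named, those with the largest change. From clone Y54G11A those called between strains are named, with the genes on either side of the catalases, which were named after their values were seen. The genes and lists were chosen with earlier results of these data known. Same-numbered arrays of different ages had deviations with a median correlation of 0.03 for ratios and 0.06 for mean intensities. For arrays of different numbers it was −0.02 and −0.04. The arrays were not paired by number in the main fit, although such medians cannot exclude a weak pairing. Results were recomputed with changed background correction, normalization, filters (dim spots, flags) and models (those of the methods among them), with replicate number or scan session as a block, and without each array. The precision is limited by the number of arrays and by spots close to background.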

Additional observations from a re-analysis of the deposited data

Results flagged for a closer look

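The change of the strain difference of ctl-1 from t1 to t3 was 1.44 on the log2 scale (adjusted p = 0.0042, limma), with the larger fitted age change in CB4856. This contrast was chosen after the values were seen, and its call was lost in 2 of 26 alternatives.

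Of 66 groups of 4 or 5 arrays tested for a single array far from the rest, 4 were marked, and chance marks about 1 in 20. For ctl-2 cea2.d.45414 the mean log2 intensity was 10.59 on t2 replicate 1-exchange against 9.53 to 9.66 on the other t2 arrays. For ctl-3 the ratio on t1 replicate 3 was 0.58 in cea2.3.29373 and 0.49 in cea2.p.51984, against −0.26 to −0.08 and −0.43 to −0.23 on the other t1 arrays. For sod-3 the mean log2 intensity was 6.39 on t1 replicate 2-exchange against 6.22 to 6.25.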

How the results depend on the processing

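Of the values of single elements under the alternatives, 2408 stayed on their side of the threshold with no called value turning, 68 were no longer called, 27 became called and 4 turned. The strain difference of ctl-1 at t1 was called in all 27 alternatives (−2.57 to −1.62) and that of ctl-3 cea2.3.29379 in all 28 (−2.39 to −0.85). Without normalization between arrays, 5 member elements were called between strains at t3 in place of 1, and 0 between t1 and t2 in place of 6, and the age changes that turned were 0.59 and 1.1 for sod-1 (t2 to t3 and t1 to t3), 0.05 for sod-3 (t2 to t3) and 0.07 for ctl-2 cea2.d.45414 (t1 to t3). Over all elements the calls in that setting went from 769 to 1391 between strains at t3 and from 7584 to 3810 from t1 to t2. With elements above background on at least 14 of 28 channels, which leaves 8 of the 11, 5 were called from t2 to t3 in place of 8. The filter removed sod-3, sod-5 and ctl-3 cea2.p.51984, each called in that step in the main fit. Over all elements 3924 of the 11807 left were called. With only the most frequent flag code, which was not the code of bright spots and left 4 to 6 elements a value, the counts were 1, 0 and 0 between strains, 2, 3 and 2 between ages and 0 for the change of the strain difference from t1 to t3. The element of ctl-1 had no value there between strains or for that change, so its calls were not tested by this setting. Over all elements 405 of 13647, 342 of 12668 and 238 of 13336 were called between strains. The t2 arrays alone gave 1 in place of 3 between strains, and 88 in place of 593 over all elements. With same-numbered arrays averaged, 0 were called between strains at t3, 4 from t2 to t3 and 0 for the t1 to t3 change of the strain difference. Over all elements that setting called 290, 2440 and 62, in place of 769, 4441 and 220. The authors' table gave 4 at t3 and 0 for that change, and the linear model of the methods, at its own threshold, gave 5 at t3. Over all elements the authors' table called 1594 at t3 and 359 for that change, and the linear model 758 at t3. The physiological age model gave 1, sod-5, in place of 0 for the change of the strain difference from t2 to t3, and 147 in place of 42 over all elements. Leaving out 1 array gave 1 to 3 calls between strains at t2 (the lowest without t2 replicate 1-exchange) and 1 to 3 at t3 (the highest without t2 replicate 2 or t3 replicate 3). Over all elements 330 were called at t2 without t2 replicate 1-exchange. At t3, 935 were called without t2 replicate 2 and 979 without t3 replicate 3. With the replicate block the counts were 2, 2 and 1 between strains and 6, 8 and 8 between ages, with the calls of sod-1 at t2 and sod-3 from t1 to t3 lost, and 1 for the t1 to t3 change of the strain difference. Over all elements the block gave 571, 572 and 689 between strains, 7709, 4649 and 10050 between ages, and 271 for that change. The alternative with only flag code 3 was chosen after seeing the data. Where no cause is given, the cause was not tested. The elements of sod-3, sod-5 and ctl-3 cea2.p.51984 lay near background, so their sizes of change are bounds.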
